A study of Mus musculus with 574 samples.

Results

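The cells described here come from the embryonic mouse ventral midbrain, express Nr4a2 (Nurr1), a nuclear receptor needed for the dopamine fate, and fall on either side of a threshold for Th, the gene of tyrosine hydroxylase. No neuronal gene was used to choose them, and Tubb3, the neuronal tubulin, was low in a few. A cell was kept when it came from E12.5 or E13.5 (E, embryonic day), had an Nr4a2 value of at least 10 RPKM (reads per kilobase of transcript per M reads) and had Barhl1, a homeobox gene of the neighbouring subthalamic lineage, under 10 RPKM. Of 550 single cells, 88 met this rule, 49 at E12.5 (27.5% of the cells of that stage) and 39 at E13.5 (26.9%). They were divided into 58 cells with Th under 10 RPKM (39 at E12.5 and 19 at E13.5) and 30 cells with Th at least 10 RPKM (10 at E12.5 and 20 at E13.5). The members and their sides were thus chosen by the measured Nr4a2, Barhl1 and Th values of these same cells, so the differences between the sides carry no test.

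All embryos were C57BL/6 and heterozygous for Lmx1a-EGFP, so every cell and pool carried the reporter allele, and no sample without the reporter was used as a control. Single cells of both stages and of E11.5, and pools of 100 cells, were sequenced with Smart-seq2, which copies whole transcripts from very little RNA. The 24 pools were 6 of GFP positive and 6 of GFP negative cells at each of E10.5 and E13.5; the GFP negative pools of E10.5 entered the shared estimate of spread but no comparison. The labels give no embryo or litter and no sort for the single cells, so each stage of cells counts as 1 sample, and a p-value between pools rests on how 6 pools of a group vary, which may be technical variation only.

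Midbrain dopamine neurons arise from floor plate progenitors that express Lmx1a and Foxa2. Postmitotic precursors switch on Nr4a2 first, and then, with the homeobox factor Pitx3, the genes that make, store and take up dopamine. Tyrosine hydroxylase converts tyrosine to L-DOPA, the enzyme encoded by Ddc converts L-DOPA to dopamine, and the transporter encoded by Slc18a2 loads dopamine into vesicles, so Th is the usual sign that an Nr4a2 cell has begun to acquire the transmitter.

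Th was bimodal in these cells. On the lower side 42 of 58 cells had no Th, the highest value was 3.33 RPKM and the next 2.52. On the upper side the lowest value was 84.6 RPKM, the next 92.02, the median 1310.1 and the highest 6396. No cell lay between 3.33 and 84.6 RPKM, so a threshold of 5 or 20 RPKM selected the same 88 cells and the same sides. Nr4a2 itself, which the rule also used, covered the same range on both sides. Its median was 585 RPKM with Th under 10 and 652 with Th at least 10 at E12.5, and 408 and 353 RPKM at E13.5. Spearman's correlation of Nr4a2 with Th over cells was 0.09 at E12.5 (n = 49) and 0.05 at E13.5 (n = 39), given as a description.

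**Figure D1:**
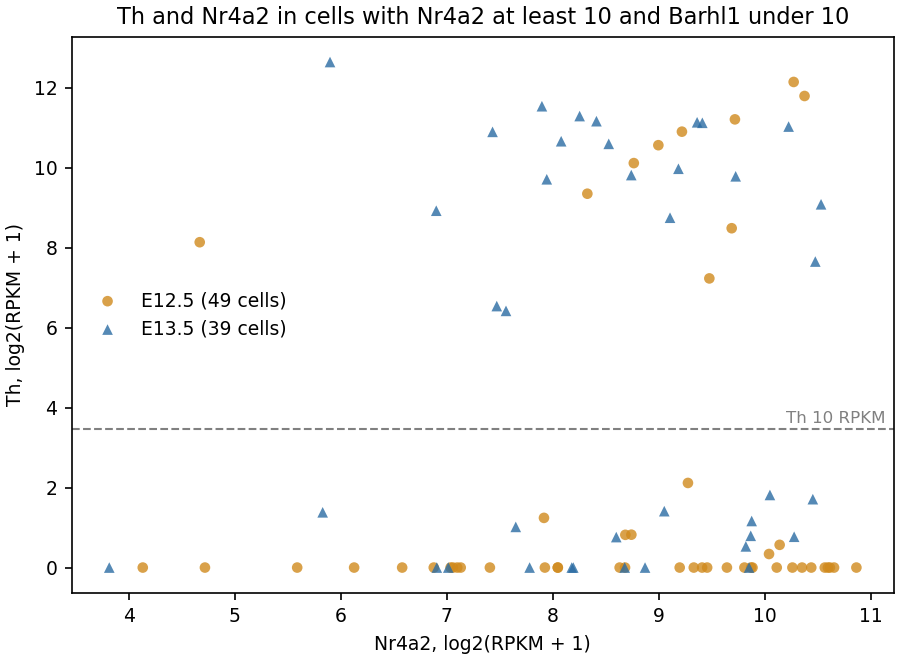
Th against Nr4a2, both as log2(RPKM + 1), in each of the 49 cells of E12.5 (circles) and 39 cells of E13.5 (triangles); the dashed line marks a Th of 10 RPKM. The cells form an upper and a lower band in Th with none between, and cells of both bands span the range of Nr4a2.

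The mix of stages differed between the sides. At E12.5 20.4% of the kept cells had Th at least 10 RPKM (10 of 49, exact 95% Clopper-Pearson interval 10.2% to 34.3%), and at E13.5 51.3% did (20 of 39, 34.8% to 67.6%). The intervals cover counting error only, not the spread between embryos. Of the 30 cells with Th, 66.7% came from E13.5 (47.2% to 82.7%), against 32.8% of the 58 cells without (21.01% to 46.3%). The E12.5 cells carry titles starting with C or F, whose meaning the labels do not give. Th was at least 10 RPKM in 4 of 20 cells titled C and in 6 of 29 titled F. The same rule at E11.5 kept 22 cells, 7 of them with Th (31.8%, 13.9% to 54.9%), so the share with Th was not in order of age across the 3 stages and its intervals overlapped between E11.5 and each later stage. Because of this mix, differences between the sides in mean log2 values were formed within a stage and then averaged over E12.5 and E13.5 with equal weight. Counts of cells and median RPKM given without a stage pool both stages and are not adjusted for the mix.

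Th was largely kept to cells of this rule at E13.5, where 20 of all 21 cells with Th at least 10 RPKM were among the 39. At E12.5 it was 10 of 16. In cells with both Nr4a2 and Barhl1 at least 10 RPKM, 2 of 23 had Th at E12.5 and 0 of 23 at E13.5. In cells with Nr4a2 under 10 RPKM, 4 cells had Th at E12.5 (3.77%) and 1 of 83 at E13.5.

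The 2 enzyme genes that give the finding its frame, Th and Ddc, are shown with the bases before their transcription starts, because Nr4a2 binds as a monomer to a motif (NBRE, letters AAAGGTCA) that can be searched there. The windows hold the 250 bases upstream of each RefSeq start (build GRCm38.p6, all on the minus strand, written 5′ to 3′ in the direction of the gene). They lie at chr7:142899996-142900245 for Th, and at chr11:11898145-11898394 and chr11:11890409-11890658 for the 2 starts of Ddc.
Th: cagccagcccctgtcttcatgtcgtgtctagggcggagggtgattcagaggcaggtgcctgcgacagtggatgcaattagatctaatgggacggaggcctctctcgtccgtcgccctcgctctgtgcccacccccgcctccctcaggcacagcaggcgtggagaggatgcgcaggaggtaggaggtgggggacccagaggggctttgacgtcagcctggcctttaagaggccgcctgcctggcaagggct
Ddc, upstream start: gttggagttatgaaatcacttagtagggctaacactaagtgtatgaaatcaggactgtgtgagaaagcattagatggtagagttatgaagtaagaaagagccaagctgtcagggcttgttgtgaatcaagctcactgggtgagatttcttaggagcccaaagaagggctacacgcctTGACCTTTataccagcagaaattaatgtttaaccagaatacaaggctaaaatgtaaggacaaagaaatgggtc
Ddc, downstream start: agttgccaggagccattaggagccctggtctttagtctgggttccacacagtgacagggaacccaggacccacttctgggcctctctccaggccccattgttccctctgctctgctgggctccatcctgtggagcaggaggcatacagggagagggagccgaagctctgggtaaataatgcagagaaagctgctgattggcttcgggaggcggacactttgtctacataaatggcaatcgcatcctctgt
Capitals mark a match of the NBRE read on the opposite strand, 73 bases before the upstream start of Ddc. Searched on both strands, the NBRE letters occurred in 1.34% of 32851 RefSeq windows of the same length, in this window of Ddc and in no window of the 11 other genes matched among the 15 named below as higher with Th. The shorter half-site AGGTCA, which lies inside the NBRE, occurred in 14.02% of all windows. A match describes letters in a window and is not a binding site, and the Th window shown here holds no such letters.

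Genes were compared as the difference between the sides in mean log2(RPKM + 1), Th at least 10 minus Th under 10, called the log2 difference below. A gene counted as past the fold when the log2 difference was at least 1, a 2-fold change, in the same direction at both stages. Of 10224 genes that reached 1 RPKM in 10% or more of the 88 cells, 375 (3.67%) were higher with Th and 88 (0.861%) were lower. These 2 percentages are the background for every count of genes between the sides given below, unless other cells or settings are named. The number of genes detected at an RPKM of at least 1 moved with Th at E13.5, with a median of 4791 per cell on the upper side (2529 to 6311) and 3705 on the lower (1991 to 5734). At E12.5 the medians were 4338 (2736 to 5224) and 4506 (2145 to 6201). The median log2 difference over all genes was 0.28 at E13.5 and -0.10 at E12.5. Among cells with at least 4000 genes, 477 genes (4.44%) were higher and 422 (3.93%) lower, of which 193 and 50 were among the 375 and 88. These shares are the background for counts in such cells. Only 6 cells without Th were then left at E13.5. Of the 15 genes named below in each direction, 14 higher and 14 lower were past the fold among those cells.

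Ddc had the largest mean log2 difference of the genes named by rule, 5.26. It was at least 10 RPKM in 28 of 30 cells with Th and in 22 of 58 without. At E12.5 Ddc ranged from 0 to 1767 RPKM (median 0.931) in the 39 cells without Th and from 0 to 1428 (median 1059) in the 10 with it. At E13.5 the ranges were 0 to 2827 (median 4.07) in 19 cells and 0 to 2352 (median 1207) in 20 cells. The ranges overlapped at both stages, since the lowest value was 0 on both sides and the highest value was on the side without Th. The log2 difference of Ddc was 5.35 at E12.5 and 5.17 at E13.5. Slc18a2, the vesicular monoamine transporter, was at least 10 RPKM in 23 of 30 and 17 of 58 cells, with medians of 83.9 against 0.0656 RPKM at E12.5 and 171.97 against 0.288 at E13.5 (log2 differences 3.71 and 3.56).

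The other members of this list were less uniform. Gch1, which makes the tetrahydrobiopterin cofactor of tyrosine hydroxylase, was past the fold (2.55 and 2.59) but reached 10 RPKM in only 12 of 30 cells with Th and in 4 of 58 without. Slc6a3, the plasma membrane dopamine transporter, was at least 10 RPKM in 8 of 20 cells with Th at E13.5 and in 1 of 10 at E12.5, against 1 of 19 and 2 of 39 without. Its log2 difference was 2.73 at E13.5 and 0.71 at E12.5, so it was not past the fold at both. Aldh1a1, a retinaldehyde dehydrogenase of a subset of dopamine neurons, reached 10 RPKM in 4 cells, all with Th and all at E13.5, and in 0 of 58 cells without. Of the 7 genes of synthesis, storage and uptake that could be considered, 3 were past the fold upward (Ddc, Gch1 and Slc18a2) and none downward, and the median log2 difference was 1.72, beside 0.09 over all genes.

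**Figure D2:**
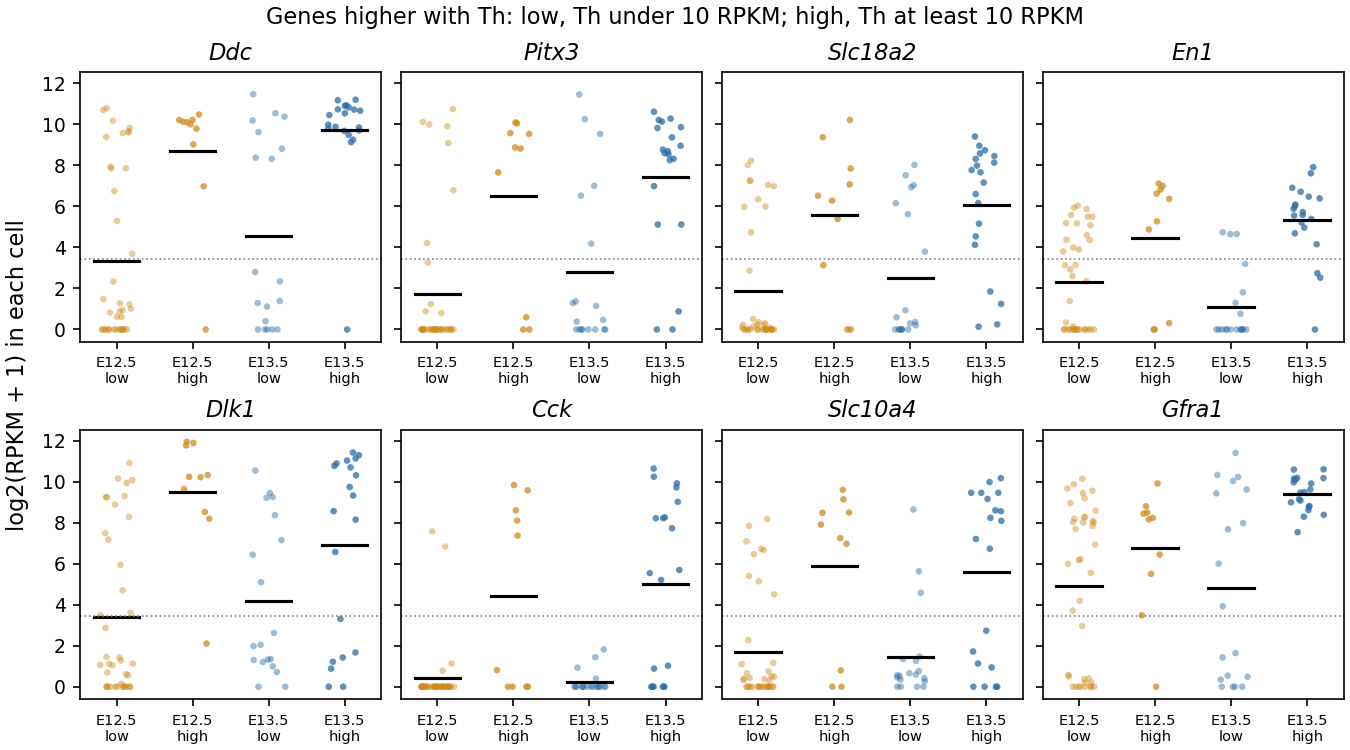
The log2(RPKM + 1) of 8 genes in each cell, by stage and by Th under 10 RPKM (low) or at least 10 RPKM (high); bars are means and the dotted line marks 10 RPKM. Ddc and Pitx3 have a group of high cells on the low side at each stage, whereas Cck has almost none: 2 of 39 cells at E12.5 and 0 of 19 at E13.5 reach 10 RPKM.

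Transcription factors of the lineage separated into those that followed Th and those that did not. Pitx3, which activates Th in dopamine neurons, was at least 10 RPKM in 24 of 30 cells with Th and in 13 of 58 without. Its medians were 459.8 RPKM with Th and 0 without at E12.5, and 399 and 0.38 at E13.5, with log2 differences of 4.80 and 4.61. All 24 cells with both Th and Pitx3 also had Ddc at least 10 RPKM. En1, a homeobox gene that patterns the midbrain and sustains dopamine neurons, differed more at the later stage: 17 of 20 cells with Th and 3 of 19 without reached 10 RPKM at E13.5, against 7 of 10 and 15 of 39 at E12.5 (log2 differences 4.22 and 2.11). Lmx1b (1.46 and 2.82) and Foxa1 (1.13 and 1.05) were also past the fold.

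Lmx1a, whose locus drives the reporter, was at least 10 RPKM in 47 of 58 cells without Th and in 21 of 30 with it, and its log2 difference was -1.65 at E12.5 and 0.63 at E13.5. Foxa2, a floor plate factor kept on in dopamine neurons, was present in 33 of 58 and 22 of 30 cells, with differences of 2.62 and -0.04. In all, 5 of the 15 lineage factors considered were past the fold upward and none downward, with a median of 0.67. Within this list the gap between stages was widest for Foxa2, and no test of the stages against each other was possible.

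Among genes that passed the filter on detection, markers of differentiating dopamine neurons held the largest median, 2.81 over 10 of 18 genes, with 6 past the fold upward and none downward. With every gene above 0 in at least 1 cell counted, their median was 0.73 over 18 genes, below 1.04 over 9 genes of synthesis, storage and uptake. Cck, the gene of the neuropeptide cholecystokinin, was at least 10 RPKM in 17 of 30 cells with Th and in 2 of 58 without (log2 differences 4.01 and 4.77). Dlk1, a membrane protein related to Notch ligands, had medians of 1193 and 1.18 RPKM at E12.5 and 507.5 and 3.11 at E13.5, so its log2 difference was larger at the earlier stage (6.10 against 2.76). Slc10a4, a synaptic vesicle protein, reached 10 RPKM in 19 of 30 and 12 of 58 cells (4.15 and 4.13). Gfra1, a receptor subunit for glial cell line-derived neurotrophic factor, was found in all 20 cells with Th at E13.5, from 184 RPKM upward, and in 10 of the 19 without (1.83 and 4.60). Chrna6, a nicotinic receptor subunit of dopamine neurons, reached 10 RPKM in 11 of 30 cells with Th and in 1 of 58 without (1.41 and 3.41).

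Of the remaining genes named by rule as higher, Atp1b1 encodes a subunit of the sodium pump (3.99 and 2.80), Fut8 a fucosyltransferase (4.18 and 2.52), Syt17 a member of the synaptotagmin family (2.59 and 3.67) and Cacna2d3 an auxiliary calcium channel subunit (3.19 and 2.86). Sez6l, a neuronal membrane protein, differed by 3.87 and 2.72. Elovl3, an enzyme of fatty acid elongation, was at least 10 RPKM in 21 of 30 cells with Th and in 8 of 58 without (3.52 and 3.27). Elovl3 (chr19:46131897-46135694, plus strand) and Pitx3 (chr19:46135685-46148326, minus strand) point towards each other and their gene models overlap at their ends in the GENCODE annotation of GRCm38. Whether the authors' counting used strand is not given in the sources used here, so reads of these 2 genes may not be separable, and the value of Elovl3 is uncertain.

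**Figure D3:**
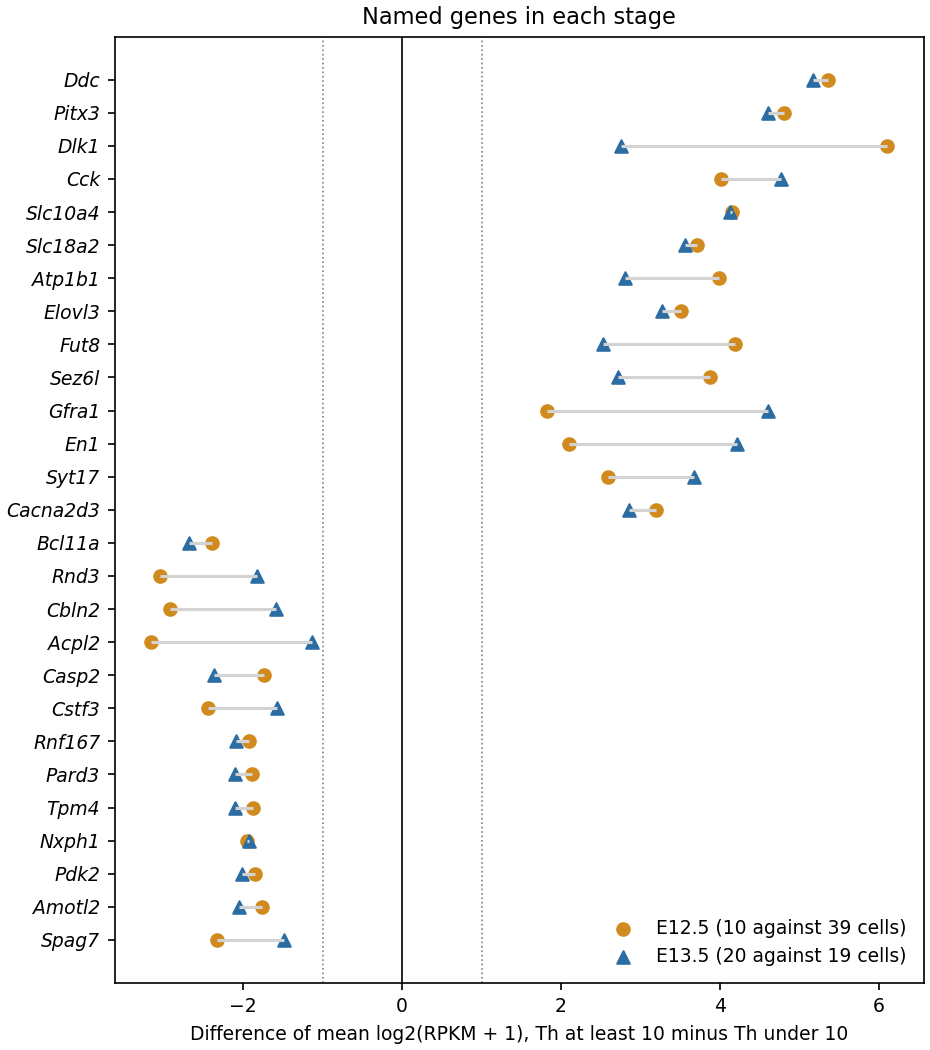
Log2 difference of 27 of the 30 genes named by rule at E12.5 (circles) and E13.5 (triangles), with a grey line between the stages and dotted lines at a 2-fold change. Ddc, Pitx3, Slc10a4 and Slc18a2 lie almost at the same value in both stages, and Dlk1, Gfra1 and En1 lie farthest apart among the higher genes.

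Among the 10 genes whose levels ordered the cells most like Th, by Spearman's correlation averaged over the 2 stages, were Cck (0.58), En1 (0.54), Ntn1 (0.54), Epha10 (0.53), Ddc (0.51), Pitx3 (0.49), Wipf3 (0.48), Slc10a4 (0.47) and Slc18a2 (0.47). They rest on 49 and 39 cells that also differ in the number of genes detected, and are given as a description. Ntn1, the gene of the axon guidance cue netrin-1, was at least 10 RPKM in 17 of 30 cells with Th and in 7 of 58 without (2.18 and 2.41), and was the only one of 7 floor plate genes considered past the fold. For Slc6a3 the averaged correlation was 0.19, for Lmx1a -0.11 and for Dll3 -0.11.

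The medians of the progenitor and proneural lists were below 0 at E12.5 and above 0 at E13.5. None of 8 progenitor genes, 14 proneural and Notch ligand genes or 4 cell cycle genes considered was past the fold, with medians of -0.28, -0.05 and -0.61. At E12.5 the medians of these 3 lists were -0.93, -0.52 and -1.20, and at E13.5 0.25, 0.50 and -0.02. Single genes did not all change sign: 3 of the 8 progenitor genes were lower with Th at both stages and none higher at both, and of the 14 proneural and Notch ligand genes 6 were lower and 3 higher at both. Among cells with at least 4000 genes, 1 of 14 proneural and Notch ligand genes was past the fold upward. Dll3, a Notch pathway gene of newborn neurons, was at least 10 RPKM in 25 of 58 cells without Th and in 11 of 30 with it, and its log2 difference was -2.74 at E12.5 and 0.56 at E13.5. Neurog2, the proneural factor of this domain, was found in 10 of 58 and 1 of 30 cells (-1.28 and -0.82). Neurod1, a factor of early neuronal differentiation, was found in 19 of 58 and 4 of 30 (-0.49 and -1.57). Each was past a 2-fold difference at 1 stage only. The summed level of 13 cell cycle genes reached 10 RPKM in 30 of 58 cells without Th and in 11 of 30 with it. Its median was 23.2 and 1.36 RPKM. The summed level of 13 progenitor genes went the other way in its median and in cells reaching 10 RPKM, but not in its highest value. It reached 10 RPKM in 33 of 58 cells without Th and in 24 of 30 with it, with medians of 97.97 and 166.3 RPKM. The highest values were 12530 and 1303 RPKM. Members of this sum differed in direction: Vim reached 10 RPKM in 27 of 58 and 20 of 30 cells, and Hes5 in 10 of 58 and 1 of 30. The cell cycle and progenitor values pool the 2 stages and are not adjusted for their mix.

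Genes of neuronal structure were present on both sides. Tubb3, the neuronal tubulin, was at least 10 RPKM in 56 of 58 cells without Th and in all 30 with it, with medians of 2558 and 3411 RPKM. The 2 cells below 10 RPKM were both of E12.5. Dcx, a microtubule protein of young neurons, was found in 46 of 58 and 27 of 30 cells (-0.62 and -0.08). Gap43, a growth cone protein (2.84 and 1.40), Stmn2, a regulator of microtubules in axons (mean 1.92), and Nefm, a neurofilament subunit (1.20 and 1.33), were the 3 of 14 pan-neuronal genes past the fold. Gap43 and Stmn2 were each present in all 30 cells with Th, and in 46 and 47 of the 58 without. Cdkn1c, an inhibitor of the cell cycle expressed in postmitotic dopamine precursors, was past the fold as well (1.13 and 2.35). It was the 1 gene of 3 in its list past the fold, and none was without the 2 cells with Tubb3 under 10 RPKM, among cells with at least 4000 genes, with Barhl1 under 1 RPKM or with a pseudocount of 10.

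Among 17 genes of synaptic vesicles and release, Syt4 (2.84 and 2.72) and Scg3 (2.16 and 1.89), both tied to dense core vesicles, were past the fold upward. Of 16 axon guidance genes, Robo1, the Slit receptor (1.82 and 1.61), Epha5, an ephrin receptor (1.55 and 1.72), and Efnb3, a transmembrane ephrin (1.91 and 1.80), were higher. Of 9 ion channel genes, Cacna2d3 was higher and its paralog Cacna2d1 lower (-2.15 and -1.07). Cacna2d1 was at least 10 RPKM in 36 of 58 cells without Th and in 9 of 30 with it, and Cacna2d3 in 11 of 58 and 18 of 30. The medians of these 3 lists were 0.53, 0.24 and 0.28. Among cells with at least 4000 genes the synaptic median was 0.00049, with 2 genes higher and 2 lower, and the axon guidance median -0.064, with 3 higher and 2 lower.

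**Figure D4:**
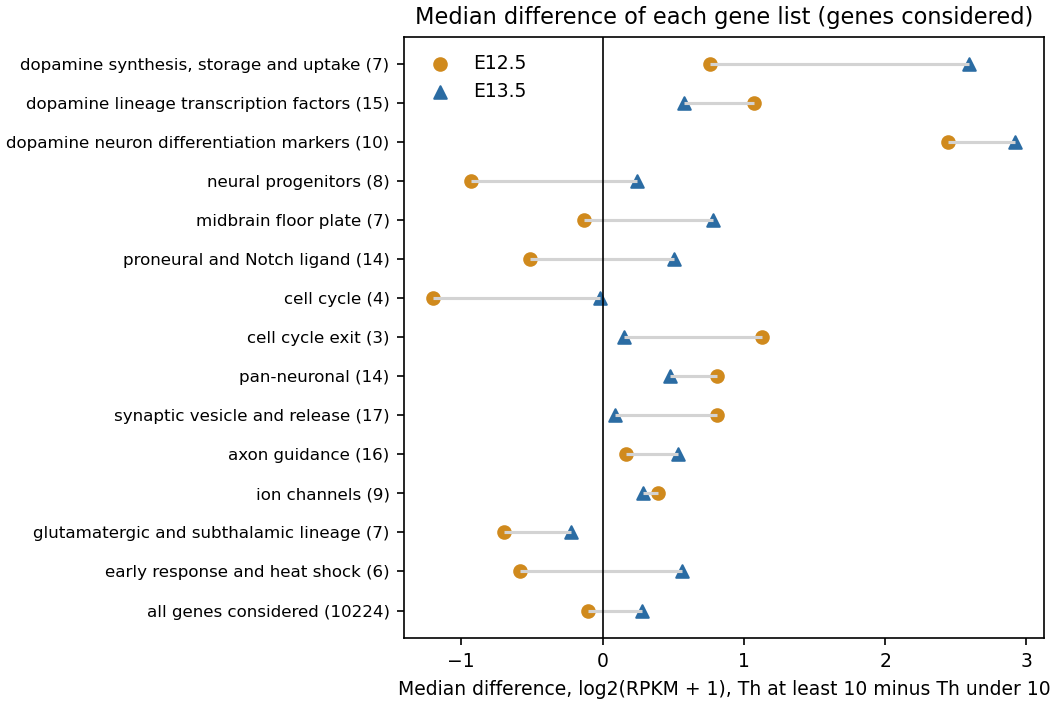
Median log2 difference between the sides for each list with at least 3 genes considered, at E12.5 (circles) and E13.5 (triangles), with all 10224 genes at the bottom. The 3 dopamine lists lie to the right at both stages, and the progenitor, proneural, floor plate and early response lists, like the median of all genes, lie on opposite sides of 0 at the 2 stages.

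Fewer genes were lower than higher with Th, and those named were of mixed function. The imbalance depended on the cells used. It was 422 lower and 477 higher among cells with at least 4000 genes, 1379 and 1223 at E12.5 alone, and 495 and 1943 at E13.5 alone. Bcl11a, a zinc finger repressor that marks subsets of dopamine neurons, had the largest mean log2 difference, -2.54. At E12.5 it ranged from 0 to 656 RPKM (median 67.4) without Th and from 0 to 227 (median 0.303) with it, and at E13.5 from 0 to 2169 (median 60.4) and from 0 to 257 (median 0.492). It was at least 10 RPKM in 40 of 58 and 11 of 30 cells, and the ranges overlapped at both stages. Rnd3, a small GTPase of migrating neurons, was found in 39 of 58 and 10 of 30 cells (-3.05 and -1.82). Cbln2, a secreted synapse organizer, was found in 22 of 58 and 3 of 30, and was listed at 0 in all 10 cells with Th at E12.5 (-2.92 and -1.59). Nxph1, which encodes a secreted neuronal glycoprotein, was found in 16 of 58 and 1 of 30 (-1.95 and -1.92).

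The lower genes also included Acpl2, Casp2, Cstf3, Rnf167, Pard3, Tpm4, Pdk2, Amotl2 and Spag7, with mean log2 differences from -1.91 (Spag7) to -2.15 (Acpl2). Pard3 encodes a cell polarity protein, Tpm4 a tropomyosin and Cstf3 a factor of mRNA cleavage. Pard3 was at least 10 RPKM in 21 of 58 cells without Th and in 2 of 30 with it. For Amotl2 the cells titled F decide the direction: without them its mean log2 difference was 0.67 instead of -1.91. With a median in place of a mean of the log2 values, 5 of the 15 lower genes and 14 of the 15 higher genes stayed past the fold.

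The label of immature cells fits the side without Th only in part. Its 58 cells were divided into 23 with Ddc or Pitx3 at least 10 RPKM (14 at E12.5 and 9 at E13.5) and 35 with neither (25 and 10), a division chosen after the values were seen and given without a test. Of the 58 cells, 12 had both genes, 10 had Ddc alone and 1 had Pitx3 alone.

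The 23 cells with Ddc or Pitx3 are described by counts, with no test, beside the cells with Th. Of the genes on which they were chosen, Ddc was at least 10 RPKM in 22 of them (median 759.96 RPKM, against 1059 in the 30 cells with Th) and Pitx3 in 13 (median 17.6 against 424). Foxa2 was present in 20 of the 23 and in 22 of the 30 cells with Th. En1 was present in 10 and 24, with 2 of 9 against 17 of 20 at E13.5, and Lmx1b in 14 and 23, with 3 of 9 against 16 of 20 at E13.5. Slc18a2 was present in 12 of the 23, with a Slc18a2 median of 12.8 RPKM against 115.04 in the cells with Th. Dll3 was present in 11 and Neurog2 in 4. When only cells without Th but with Ddc or Pitx3 were set against the 30 cells with Th, Cck (4.56), Dlk1 (3.32), Atp1b1 (3.19), Slc10a4 (2.87), Fut8 (2.83), En1 (2.41), Slc18a2 (2.20) and Syt17 (2.12) kept mean log2 differences above 2, and Gfra1 was at 0.69. Of the 2 genes on which those cells were chosen, Ddc was at 0.57 and Pitx3 at 2.08. Of 16 lineage factors considered in this comparison, 3 were past the fold upward and 2 downward, beside 6.39% and 1.19% of all genes considered. Bcl11a was at -3.22 in the same comparison. In all, 12 of the 15 higher and 8 of the 15 lower genes stayed past the fold at both stages.

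The 35 cells with neither gene are described in the same way. Foxa2 was present in 13 of them, En1 in 8, Lmx1b in 12 and Slc18a2 in 5, while Lmx1a was present in 29 and Tubb3 in 33. Slc17a6, the vesicular glutamate transporter, was at least 10 RPKM in 22 of the 35 (median 45.3 RPKM) and in 11 of the 23 cells with Ddc or Pitx3 (median 7.55). By stage, it was present in 13 of 25 and 9 of 10 of the cells with neither gene, and in 9 of 14 and 2 of 9 of those with Ddc or Pitx3. Of the 30 cells with Th, 12 had Slc17a6, and so did 36 of 46 cells of the same stages with both Nr4a2 and Barhl1 at least 10 RPKM. In those 46 cells En1 was present in 1 and Pitx3 in 2.

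Dll3 was present in 14 of the 35 cells with neither gene and Neurog2 in 6. Foxp2, a forkhead factor, was present in 18 of these 35 cells, in 18 of the 23 with Ddc or Pitx3 and in 28 of the 30 with Th. Its log2 differences were 2.32 and 2.54. It was the 1 gene past the fold of 7 considered in the glutamatergic and subthalamic list, which also holds Slc17a6. Sox2, a progenitor factor, was at least 10 RPKM in 2 of the 35 cells with neither gene, both of E12.5, and in 0 of the 23 with Ddc or Pitx3.

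**Figure D5:**
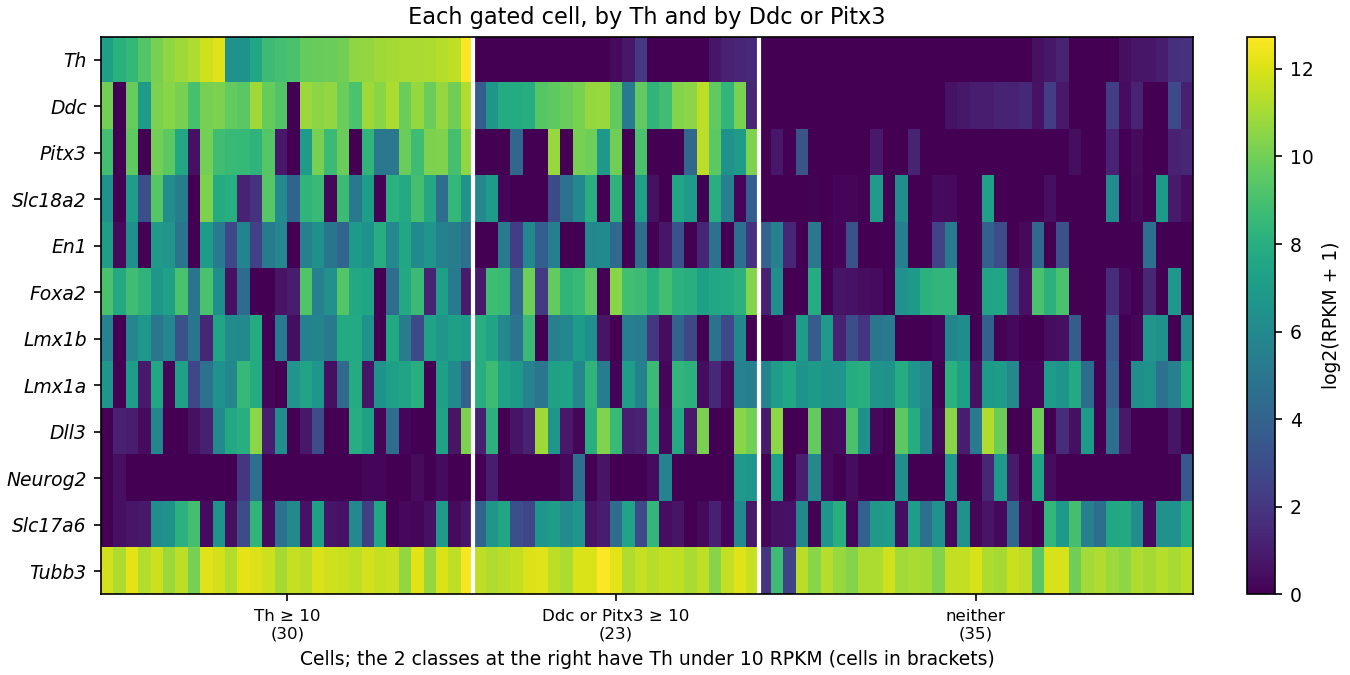
Log2(RPKM + 1) of 12 genes (rows) in each of the 88 cells (columns), ordered into the 30 cells with Th at least 10 RPKM and, with Th under 10 RPKM, 23 cells with Ddc or Pitx3 at least 10 RPKM and 35 with neither. Foxa2 is high in 20 of the 23 middle columns and in 13 of the 35 at the right, and Tubb3 is high in nearly all columns.

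Markers of other cell types were at or near 0 in most cells. The summed level of 7 microglial genes did not exceed 3.26 RPKM in any cell. On the side with Th no cell reached 10 RPKM in the summed markers of endothelium, mesenchyme, GABAergic or serotonergic neurons. On the side without Th, 3, 2, 4 and 4 of 58 cells did, the highest of these sums being 402 RPKM of GABAergic genes. The summed markers of red nucleus and motor neurons reached 10 RPKM in 11 of 58 cells without Th and in 5 of 30 with it, up to 516.7 and 129.8 RPKM, with a median of 0 on both sides. The part of these cells in the differences between the sides was not tested. Summed globin and other red blood cell genes reached 10 RPKM in 9 of 58 and 4 of 30 cells, up to 120.2 and 112.4 RPKM. Among cells with Th, the defining markers of dopamine neurons were present in most (Ddc in 28 of 30 and Pitx3 in 24).

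Cells of E11.5, which the rule did not use, were divided in the same way into 7 with Th and 15 without. Of the 15 genes higher with Th at the later stages, 8 were at least 2-fold higher at E11.5 and 0 lower, against 10.6% of all genes higher. The median log2 difference over all genes at E11.5 was -0.31, so genes in general lay lower with Th. Ddc (5.74), Pitx3 (2.34) and Slc18a2 (2.01) had the largest log2 differences. Ddc was at least 10 RPKM in 5 of 7 cells with Th and in 2 of 15 without, and Pitx3 in 2 of 7 and 0 of 15. Cck (-0.55), Slc10a4 (-0.52) and Atp1b1 (-0.29) lay in the opposite direction: at E11.5 Cck and Slc10a4 reached 10 RPKM in 0 of 7 cells with Th and in 1 of 15 without. En1 had the same counts of cells, with a log2 difference of 0.59. Of the 15 lower genes, 7 were at least 2-fold lower and 2 (Tpm4 and Rnd3) higher, against 24.9% of all genes lower. Bcl11a was at least 10 RPKM in 1 of 7 cells with Th and in 10 of 15 without (-2.98), and Cbln2 in 0 of 7 and 8 of 15 (-3.71). With 7 cells of 1 sample these values have no replicate check, and the shares of all genes are over genes without the filter on level by which the 15 were named.

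The pools give libraries that the rule did not use and that can be tested. In pools, fewer cells of a type and less RNA per cell cannot be told apart. Both contrasts below were fitted with limma and Benjamini-Hochberg adjustment over 15871 genes, and they share the 6 GFP positive pools of E13.5. Between E10.5 and E13.5 in GFP positive pools, all 15 genes named as higher with Th rose, beside 22.1% of all genes called higher and 29.6% lower, with a median log2 difference of 3.24 beside -0.14 over all genes. The 15 genes were named only if they reached 10 RPKM in enough cells of E12.5 and E13.5, which favours a rise with stage. The shares of all genes carry no such filter, so this rise does not bear on the split by Th. Pitx3 was between 0 and 1.501 RPKM in the 6 pools of E10.5 and between 49.2 and 127.3 in those of E13.5, without overlap (log2 difference 5.80 ± 0.27, standard error, adjusted p = 2.17e-15). Ddc rose from 14.04 ± 5.004 to 191 ± 48.2 RPKM (SD, n = 6 pools each; 3.70 ± 0.30, limma adjusted p = 9.63e-11). En1 changed least of the 15, from 16.2 ± 4.17 to 28.9 ± 5.93 RPKM (0.82 ± 0.21, limma adjusted p = 0.00202).

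Most genes that were lower with Th in single cells rose between E10.5 and E13.5 in GFP positive pools. Of the 15, 9 rose, 2 fell (Tpm4 and Spag7) and 4 were not called, with a median log2 difference of 0.92. Of all genes, 22.1% were called higher and 29.6% lower. The 15 lower genes were also named only if they reached 10 RPKM in enough cells of E12.5 and E13.5, which favours a rise with stage. Their rise therefore does not bear on the split by Th. Bcl11a rose from 6.63 ± 2.13 to 228 ± 33.001 RPKM (4.94 ± 0.19, limma adjusted p = 8.29e-17) and Nxph1 from 2.396 ± 2.22 to 98.6 ± 25.7 (5.08 ± 0.37, adjusted p = 9.91e-12). Their values at E10.5 and E13.5 did not overlap. Both genes were thus at higher levels in GFP positive pools of E13.5 while being at lower levels in cells with Th than in cells without it at E12.5 and E13.5.

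At E13.5, GFP positive pools were also set against GFP negative pools. Of the 15 genes higher with Th, 9 were higher in GFP positive pools and none lower, beside 3.42% and 3.74% of all genes, with a median log2 difference of 1.32. Those shares are over genes without the filter on level by which the 15 were named. Pitx3 and Elovl3 were listed at 0 in all 6 GFP negative pools. For Ddc the means were 191 ± 48.2 RPKM with GFP and 44.6 ± 18.1 without (2.15 ± 0.30, limma adjusted p = 1.96e-05), and for Cck 85.1 ± 45.5 and 11.6 ± 6.57 (2.76 ± 0.45, adjusted p = 0.00017). Dlk1 was not called, at 242 ± 46.5 and 198 ± 67.4 RPKM (0.34 ± 0.36, adjusted p = 0.688), and neither was Sez6l, at 118.8 ± 16.1 and 90.2 ± 5.16 (0.39 ± 0.21, adjusted p = 0.327). Of the 15 lower genes, Bcl11a (1.05 ± 0.19), Nxph1 (1.29 ± 0.37) and Acpl2 (0.78 ± 0.15) were higher in GFP positive pools and none was lower. The call of Nxph1 (limma adjusted p = 0.0293) was lost without GFP positive pool 3 or 6 or GFP negative pool 1, 3 or 5, at adjusted p between 0.0561 and 0.0699. Cbln2 (0.11 ± 0.44, adjusted p = 0.932) was not called.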

How the data were processed

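The cells, gene lists and alternatives were chosen with earlier results of these data known. STAR 2.3.0, a read aligner, and the build mm10 are named per the submitters' processing notes; the read counter and annotation were not given in the sources used here. In single cells the authors deposited log2 values of 25489 genes, formed as log2(RPKM + 0.001) judging by the lowest value; RPKM were recovered from them. They deposited RPKM of 23706 genes in 24 pools. The files hold no read counts. Depth estimated from steps between low values was 0.395 to 3.89 M reads per cell (median 1.69) and is rough, since a median of 19.5% of low values came within 0.05 of whole reads. The reporter line was left out of tests.

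Cells were compared with a pseudocount of 1, with Python 3.11.15, pandas 2.3.3 and SciPy 1.17.1. The 15 genes named in each direction had the largest mean differences past the fold, with 10 RPKM or more in 25% or more of the cells of the higher side at each stage, leaving out Th, Nr4a2 and Barhl1. Members of 22 gene lists (245 genes, 2 without a row) and the 10 genes most like Th were also reported; several of these genes are not reported here but stay in the counts. Pools were fitted as log2(RPKM + 1) with limma 3.58.1 in R 4.3.3, with 4 group means in 1 model, a variance trend and a call at an adjusted p under 0.05, for genes that reached 1 RPKM in 6 pools or more. Both steps were tested on simulated data. The simulated cells had raised levels, normal noise and no values at 0, unlike the real cells. That test therefore checks the computation only and not how reliable the counts of genes are. Gene positions are from GENCODE and promoters from RefSeq, both on GRCm38; RefSeq matched 12 of the 15 higher and 11 of the 15 lower genes.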

Additional observations from a re-analysis of the deposited data

Results flagged for a closer look

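In pools, 81 groups of 6 values of the named genes were checked for a highest or lowest pool far from the others, and 6 stood out, where chance gives about 1 in 20 groups. In GFP positive pools of E13.5 the highest pool had 102.6 RPKM of Atp1b1 (next 67.4), 84.9 of Slc18a2 (next 48.5) and 414 of Rnd3 (next 313), and the lowest had 30.97 of Fut8 (next 59.7). In GFP positive pools of E10.5 the highest had 25.2 RPKM of Cck (next 11.6) and the lowest 7.93 of En1 (next 16.4).

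Of the genes in the lists, 2 differed by at least 2-fold between the sides in opposite directions at the 2 stages. Cdkn2d, a cell cycle inhibitor, was higher with Th at E12.5 (log2 difference 1.42) and lower at E13.5 (-1.53). Junb, an early response factor, was lower at E12.5 (-1.004) and higher at E13.5 (1.24). The difference between stages was not tested, since each stage is 1 sample.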

How the results depend on the processing

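The share of the genes considered that were past the fold, 3.67% higher and 0.861% lower with Th, changed with the processing. It was 7.71% and 3.35% (788 and 342 genes) with the stages pooled, 11.8% and 13.3% (1223 and 1379) with E12.5 cells alone, 18.8% and 4.78% (1943 and 495) with E13.5 cells alone, 7.64% and 2.81% (781 and 287) with a pseudocount of 0.1, and 0.704% and 0.0587% (72 and 6) with a pseudocount of 10. Lower genes made up 1.38% with only cells listed at 0 for Th on the lower side and 3.93% with cells of at least 4000 genes, where the E13.5 share of cells with Th was 71.4%. Higher genes made up 5.69% (586) without cells titled F and, in an alternative chosen after seeing the data, 6.39% (627) against cells with Ddc or Pitx3. The cause was not tested, beyond the fewer cells or stages used; a single stage asks for the fold once, not at both. Rescaling each cell by a median of ratios gave 307 and 67 genes.

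Of 450 values of named genes between the sides, leaving out settings that cannot change them (Th thresholds of 5 and 20 RPKM and no filter), 252 moved by less than the SD between the 2 stages, 197 moved by more and kept their direction, and 1 reversed (Amotl2, 0.67 without cells titled F). The 252 include every value from E12.5 cells alone and from E13.5 cells alone. For those, a move smaller than this SD was fixed by arithmetic and shows nothing. With a pseudocount of 10, 15 of the 15 higher and 6 of the 15 lower genes were past the fold. Leaving out 1 pool at a time gave 3342 to 3475 genes higher and 4492 to 4607 lower at E13.5 against E10.5, and 457 to 553 and 483 to 614 between GFP classes. Between GFP classes, calls then appeared for Syt17 (adjusted p = 0.0319 to 0.0401, against 0.052 with all pools), Fut8 (0.0333 without GFP positive pool 6), Pard3 (0.0324 without GFP positive pool 1) and Atp1b1 (0.0248 without GFP positive pool 3), and between stages for Casp2 (0.0457 without E10.5 pool 1). With a pseudocount of 0.1 the calls of Slc10a4 (0.0651) and Nxph1 (0.26) were lost, and with only the groups compared in the fit Sez6l was called (0.033). The values that reversed were uncalled and near 0. They ranged from -0.10 to 0.099 for Amotl2 between stages, and between GFP classes from -0.17 to 0.050 for Amotl2, -0.086 to 0.046 for Spag7, -0.082 to 0.070 for Cstf3 and -0.055 to 0.31 for Pdk2. No paired analysis was possible because the labels number no pools or cells across groups. The depth of single cells is known only roughly, so a gene at 0 may have been missed.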
